A study of Mus musculus with 6 samples.

Results

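The guanylate-binding proteins (GBPs) and the immunity-related GTPases (IRGs) are interferon-induced GTPases. They were followed here in plasmacytoid dendritic cells (pDCs) from mouse spleen, compared between libraries labelled wild type (WT) and libraries labelled knockout (KO) for IRF8. Below, WT and KO stand for those labels. The family members were named by gene symbol: Gbp2, Gbp3, Gbp4, Gbp6, Gbp7, Gbp8, Gbp9, Irgm1, Irgm2 and Igtp. Of these 10 genes, 6 had a probe set listed for that gene alone, out of 19937 such genes on the array. They were Gbp3, Gbp4, Gbp7, Gbp8, Gbp9 and Irgm1, each with 1 probe set. The other 4 genes, Gbp2, Gbp6, Irgm2 and Igtp, were covered only by probe sets listed for several genes, and their signals are given as those of the probe set.

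Cells carrying both B220 and SiglecH were collected from 3 WT and 3 KO samples, and their amplified RNA was hybridised to Affymetrix arrays. The labels give the genotype only as WT or KO. They do not state the allele, whether the deletion is restricted to some cells, the strain, the age of the animals or any pooling. Nothing in the labels says that replicates came from separate animals, so p-values speak only of the scatter among these samples, and that scatter may be technical. Levels are the deposited log2 values, in which a difference of 1 is a doubling, and n = 3 arrays per genotype throughout.

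GBPs and IRGs defend cells against bacteria and parasites that live inside vacuoles. Interferon gamma induces both families, in part through IRF1, and type I interferon induces many members too. GBPs gather on the membrane of a pathogen's vacuole or on freed bacteria and help to open them and to start inflammasome signalling. The IRGM proteins, Irgm1, Irgm2 and Igtp (also called Irgm3), are regulators that stay on the cell's own membranes and keep the effector IRGs inactive there. In the mouse the GBP genes lie in a pair of clusters. Gbp7, Gbp3 and Gbp2 are on chromosome 3, and Gbp8, Gbp9, Gbp4 and Gbp6 on chromosome 5. The IRGM genes are on chromosome 11. IRF8 is a transcription factor of the same family as IRF1 and binds related sequences together with partners.

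Because these genes are known for interferon-responsive promoters, the sequence before each transcript start is shown for the members that the RefSeq promoter table holds (build GRCm38.p6). The table held windows for Gbp7, Gbp3, Gbp2, Irgm1, Irgm2 and Igtp. Gbp4, Gbp6, Gbp8 and Gbp9 had no entry. Each line gives the 110 bases before the start, from position -110 to -1, read 5′ to 3′ on the gene's strand. Capitals mark matches to 3 motifs searched on both strands, with overlaps allowed. These were an ISRE-like motif (GAAANNGAAA, as bound by IRFs), a GAS-like motif (TTCNNNGAA, named after the interferon gamma-activated site) and an ETS-IRF composite (GGAANNGAAA, as bound by PU.1 with IRF8 or IRF4).
Gbp7, chr3:142530226-142530335, plus strand: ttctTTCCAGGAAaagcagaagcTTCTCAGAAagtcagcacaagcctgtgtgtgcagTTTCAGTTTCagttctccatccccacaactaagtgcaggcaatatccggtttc
Gbp3, chr3:142559934-142560043, plus strand: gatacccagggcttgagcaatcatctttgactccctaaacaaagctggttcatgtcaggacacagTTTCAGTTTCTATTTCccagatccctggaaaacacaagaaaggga
Gbp2, chr3:142620553-142620662, plus strand: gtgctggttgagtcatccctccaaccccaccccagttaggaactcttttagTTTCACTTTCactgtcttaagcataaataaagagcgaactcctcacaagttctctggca
Irgm1, chr11:48871421-48871530, minus strand: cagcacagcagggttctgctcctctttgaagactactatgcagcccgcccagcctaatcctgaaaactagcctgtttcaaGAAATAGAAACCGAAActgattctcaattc
Irgm2, chr11:58214867-58214976, plus strand: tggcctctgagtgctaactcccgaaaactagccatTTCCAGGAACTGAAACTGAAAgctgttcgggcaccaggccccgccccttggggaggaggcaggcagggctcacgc
Igtp, chr11:58199446-58199555, plus strand: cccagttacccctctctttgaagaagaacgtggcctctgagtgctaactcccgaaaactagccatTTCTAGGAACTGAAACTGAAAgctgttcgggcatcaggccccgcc

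All 6 of these genes had an ISRE-like match within 250 bases before the start, in 6 of their 7 windows. Gbp3 has a second listed start whose window held none. Over all 32851 windows in the table, which run from 250 bases before to 50 after a start, 3.44% held an ISRE-like match. GAS-like matches were found in 3 of the 6 genes, Gbp7, Irgm2 and Igtp, against 8.30% of all windows. Gbp7 held a pair of them, beginning at positions -106 and -87, and its ISRE-like match began at -53. In Irgm2 and Igtp an ETS-IRF composite, found in 2.72% of all windows, lay between the GAS-like and ISRE-like matches and overlapped both. The same order, with the same overlaps, stood in the windows of the effector IRG genes Tgtp1 (matches beginning at -88, -83 and -77) and Tgtp2 (-81, -76 and -70). The upstream sequences of Irgm2 and Igtp shared an unbroken run of 55 bases. That run does not appear in the printed stretches and held none of the matches. Around the matches the printed stretches of both genes are also nearly the same, so their matches are not separate cases. A match is a description of the letters, and binding was not measured here.

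**Figure D1:**
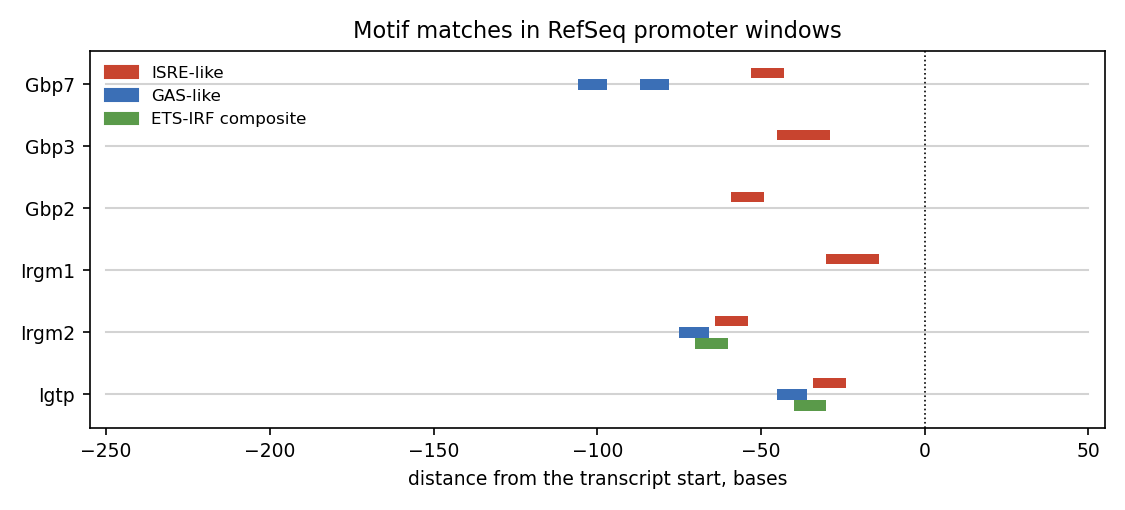
Positions of motif matches in the RefSeq promoter windows of 6 members. The x axis is the distance from the transcript start in bases (dotted line at 0), each row is a gene (the window with matches for Gbp3), and coloured bars are matches to the 3 motifs. Every gene has an ISRE-like match before its start, and Irgm2 and Igtp share the same order of all 3 motifs.

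The measured GBP genes differed between the genotypes in opposite directions. Gbp7 rose 3.57-fold and Gbp8 fell 2.36-fold in KO, and these were the members that passed the test. The other 4 measured members did not pass. Gbp3, Gbp9 and Irgm1 had positive differences and Gbp4 a negative one. The test was limma on all 19937 genes, with p-values adjusted by the Benjamini-Hochberg method and called at 0.05. So 1 of 6 measured members was called higher, where 2.30% of all genes were, and 1 of 6 was called lower, where 2.08% of all genes were. The median difference of the 6 members was 0.65 log2 units, and that of all genes was -0.04.

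Gbp7, a GBP reported to act with the phagocyte oxidase and with autophagy proteins, measured 5.40, 5.03 and 5.57 in the WT arrays and 7.05, 7.23 and 7.21 in the KO arrays (replicates 1 to 3, log2 levels). Every KO array lay above every WT array, and the KO values were close to each other. The WT mean was 5.33 ± 0.28 and the KO mean 7.17 ± 0.10 (SD, n = 3). They differed by 1.84 log2 units (SE 0.16, 95% interval 1.47 to 2.20, limma adjusted p = 0.000972). Its neighbour Gbp3 measured 5.57, 5.80 and 6.01 in WT and 6.05, 6.85 and 6.57 in KO. The groups did not overlap, but KO replicate 1 lay just above the highest WT array, 0.26 above the WT mean, against 1.06 and 0.77 for KO replicates 2 and 3. The log2 difference of Gbp3 was 0.70 (SE 0.22, limma adjusted p = 0.149), and it passed when KO replicate 1 was left out (0.91, adjusted p = 0.0199).

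On chromosome 5, Gbp8 measured 8.17, 8.77 and 8.53 in WT and 7.16, 7.42 and 7.18 in KO. All KO arrays lay below all WT arrays. The WT mean was 8.49 ± 0.30 and the KO mean 7.25 ± 0.15 (SD, n = 3). The log2 difference was -1.24 (SE 0.17, 95% interval -1.63 to -0.84, limma adjusted p = 0.00771). Gbp4 measured 7.56, 8.14 and 8.20 in WT and 6.89, 7.49 and 7.09 in KO. The groups were separate, but WT replicate 1 lay close to KO replicate 2. The log2 difference was -0.81 (SE 0.22, limma adjusted p = 0.1), and without WT replicate 1 it was -1.02 (adjusted p = 0.0469).

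Gbp9 lies between Gbp8 and Gbp4 in the chromosome 5 cluster, and its difference had the other sign. It measured 6.73, 6.23 and 7.36 in WT and 7.35, 7.58 and 7.48 in KO, so the highest WT array reached into the KO range. The spread was wider in WT (SD 0.57) than in KO (SD 0.12). The log2 difference was 0.70 (SE 0.26, limma adjusted p = 0.236). Irgm1, the regulatory IRG needed for resistance to mycobacteria, measured 8.51, 8.11 and 7.78 in WT and 8.44, 9.05 and 8.69 in KO. The groups overlapped, and the log2 difference was 0.60 (SE 0.22, limma adjusted p = 0.235). In all 6 members an unadjusted limma p was under 0.05, as it was for 3203 of the 19937 genes.

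**Figure D2:**
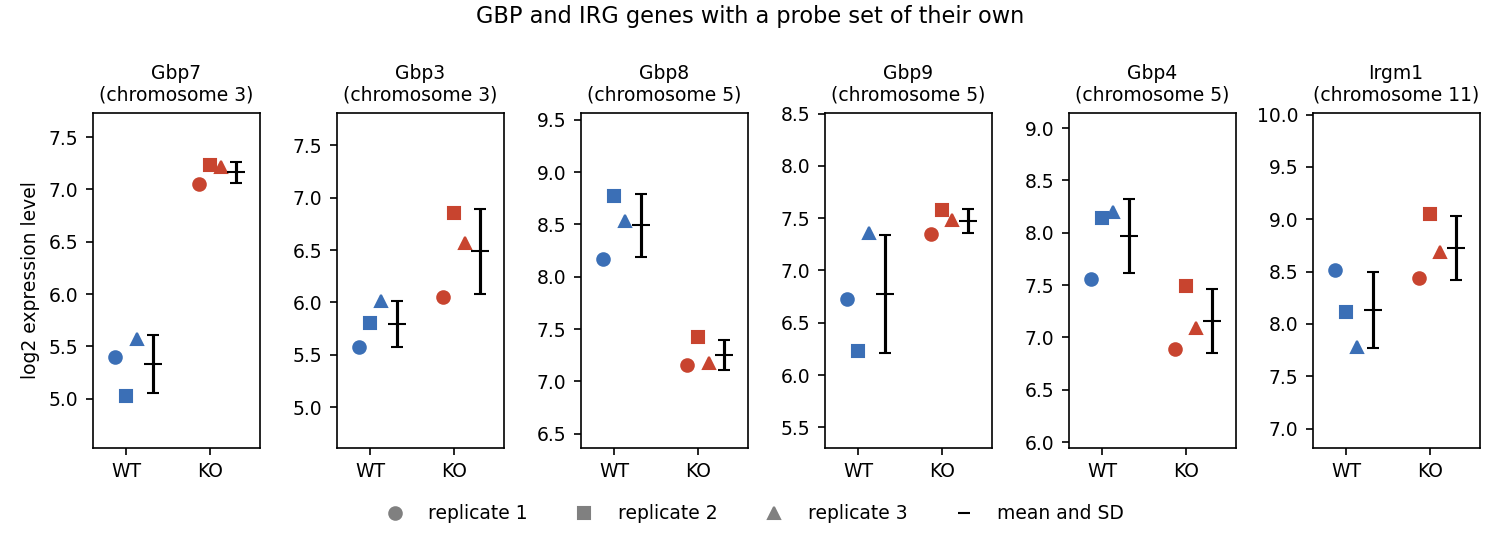
Log2 expression levels (y axis, every panel spanning the same number of log2 units) of the 6 members with a probe set of their own, in 3 WT and 3 KO arrays (x axis). Symbols are arrays by replicate number, and the bars are mean and SD. Gbp7 and Gbp8 show wide gaps between the genotypes in opposite directions, Gbp3 and Gbp4 narrow ones, and Gbp9 and Irgm1 overlap.

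Gbp7 and Gbp3 were wholly higher in KO and Gbp8 and Gbp4 wholly lower. Over all genes 8.71% were wholly higher and 11.7% wholly lower. Single exact permutation tests of 3 against 3 arrays use 20 relabellings and cannot give a two-sided p below 0.10, the value that each of these 4 genes had. The calls of Gbp7 and Gbp8 kept their direction and stayed under 0.05 when any single array was left out. An unequal-variance test of each gene ended both calls (adjusted p = 0.235 for Gbp7 and 0.297 for Gbp8), and under it 2 genes were higher and 2 lower in the whole table.

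Among the KO arrays, replicate 2 had the highest level of all 6 measured members. Over all genes this array was the highest KO array for 25.4%, and among 25 measured type I interferon-stimulated genes for 5. In the other lists described below it was highest for 6 of 13 other GTPases, 6 of 12 feedback inhibitors and 6 of 17 transcription factors. It was highest for 7 of 17 genes in each of the autophagy and inflammasome lists. The counts were 2 of 9 for receptors and kinases, 4 of 15 for ligands and 6 of 22 for interferon gamma-induced genes. Without KO replicate 2, Gbp7 still differed by 1.80 (limma adjusted p = 0.00919) and Gbp8 by -1.32 (adjusted p = 0.0272).

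Probe sets shared between genes were tested in a fit of all 22961 listed probe sets. Of the 3 that list a member among other genes, 1 was higher, where 1.95% of all listed probe sets were. The probe set listed for both Gbp2 and Gbp2b, neighbours on chromosome 3, measured 4.91, 5.10 and 5.08 in WT and 5.97, 7.10 and 6.29 in KO. All KO arrays were higher, by very different amounts. The log2 difference was 1.43 (SE 0.27, limma adjusted p = 0.0356), and the call was lost without KO replicate 3 or any 1 of the WT arrays (highest adjusted p 0.116). A separate probe set listed for Gbp2b alone had mean levels of 4.07 (WT) and 4.03 (KO), which overlapped (limma adjusted p over genes 0.954).

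The probe set listed for both Irgm2 and Igtp measured 7.33, 6.75 and 6.68 in WT and 8.13, 7.96 and 7.43 in KO. The groups were separate, with KO replicate 3 near WT replicate 1. The log2 difference was 0.92 (SE 0.24, limma adjusted p = 0.104). The probe set that lists Gbp6 together with Gbp4, Gbp8, Gbp9, Gbp10 and Gbp11 measured 8.25, 8.75 and 8.69 in WT and 8.39, 9.11 and 8.46 in KO. These ranges overlapped, and the log2 difference was 0.09 (95% interval -0.44 to 0.62, limma adjusted p = 0.906). Its sign turned without WT replicate 1 (-0.07) or KO replicate 2 (-0.14). Although it lists Gbp8 and Gbp4, this probe set did not show the lower KO levels of their own probe sets. Its signal cannot be divided among the listed genes.

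**Figure D3:**
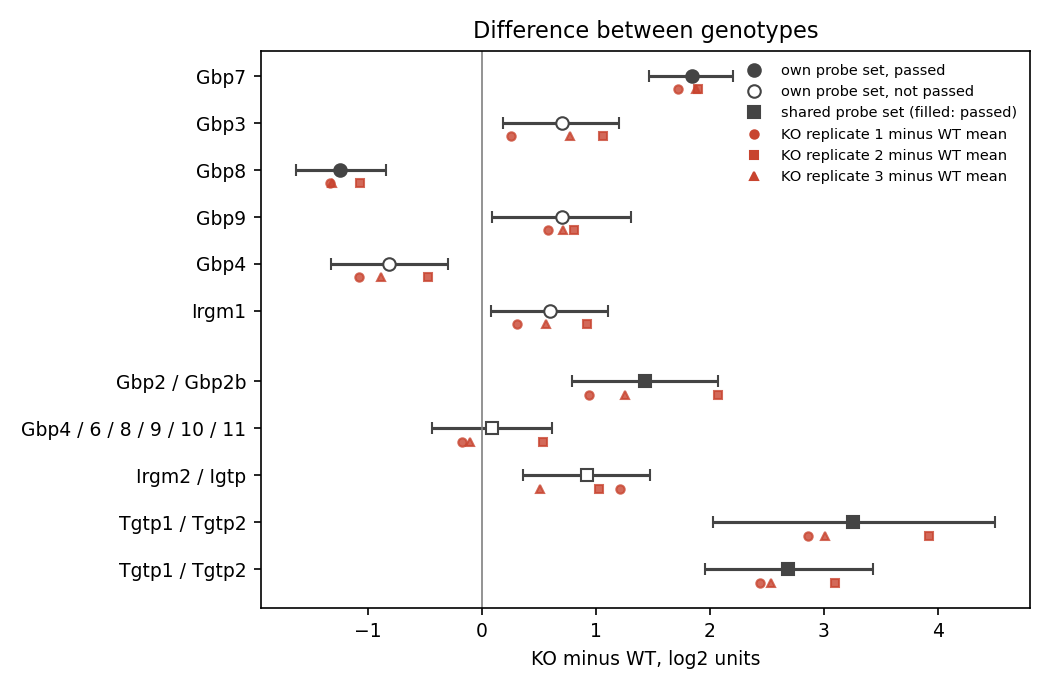
KO minus WT difference in log2 units (x axis) for the 6 members with their own probe set (circles) and for 5 shared probe sets (squares, labelled with every listed gene). Black bars are 95% intervals of each limma fit without adjustment, filled symbols passed the adjusted threshold, and small red symbols are single KO arrays against the WT mean. Gbp7 at 1.84 and Gbp8 at -1.24 stand on opposite sides of 0, and both Tgtp1 and Tgtp2 probe sets lie above 2.

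Of 13 other measured GBP, IRG and large GTPase genes, 1 rose and 0 fell by limma over all genes (median difference 0.16). The 13 include Atl1, Atl3, Irgc1 and Irgq, which are not known for induction by interferon and did not pass, so count and median are not those of interferon-induced genes alone. The rise was Gm12250, also called Irgb10, an effector IRG that acts with GBPs on bacterial membranes. It measured 5.36, 5.37 and 5.03 in WT and 7.34, 7.06 and 6.56 in KO, with no overlap. It was 3.33-fold higher (log2 difference 1.74, SE 0.21, limma adjusted p = 0.00412). Its promoter window held ISRE-like matches at -91 and -46 and a GAS-like match at -61. Effector IRG genes Tgtp1 and Tgtp2 are near-identical and are listed together on both of their probe sets. The brighter measured 8.31, 7.27 and 8.26 in WT and 10.39, 11.05 and 10.49 in KO, a 6.48-fold higher level (limma adjusted p = 0.00513). The dimmer was 9.61-fold higher (adjusted p = 0.0181), a call that was lost without WT replicate 1, KO replicate 2 or KO replicate 3 (highest adjusted p 0.0734). Of 7 shared probe sets of the family that list no member, 3 were higher, where 1.95% of all listed probe sets were, and 0 lower. Both Tgtp1 and Tgtp2 probe sets are among the 3. The third lists Gm4070 and Gvin1, very large GTPase genes, and was 1.90-fold higher (limma adjusted p = 0.00931, 0.0501 without KO replicate 2).

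Other effector genes of the family did not pass, and 2 are named here after their values were seen. Iigp1 (Irga6), an IRG that loads onto the Toxoplasma vacuole, measured 7.47, 6.82 and 7.03 in WT and 6.38, 7.97 and 5.60 in KO. Its KO arrays lay both above and below the WT range (log2 difference -0.46, limma adjusted p = 0.773). Gbp5, a GBP linked to inflammasome assembly, measured 4.63, 4.92 and 4.80 in WT and 5.40, 5.94 and 4.54 in KO (log2 difference 0.51, limma adjusted p = 0.519). In both genes KO replicate 2 was again the highest KO array.

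The lists around the GTPases moved unevenly. Over all genes 2.30% were called higher and 2.08% lower, the shares to set beside each list count below. Of 25 measured type I interferon-stimulated genes, 17 rose and 0 fell by limma (median 1.14). Their largest rises were those of Rtp4, Oas2, Ifit3 and Ifit1, between 9.13-fold and 53.0-fold. Of 22 measured genes known for induction by interferon gamma, 1 rose and 0 fell (median -0.09). That gene was Cxcl10, a chemokine that attracts T cells, which was 2.96-fold higher (limma adjusted p = 0.0104, lost without WT replicate 2 at 0.0508 or WT replicate 3 at 0.051).

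Upstream of the GTPases, the receptors and kinases of interferon signalling moved both ways. Of 9 measured, 1 rose and 2 fell (median -0.28). Ifngr1, the ligand-binding chain of the interferon gamma receptor, measured 7.75, 8.36 and 8.37 in WT and 9.09, 9.84 and 10.09 in KO, 2.86-fold higher (limma adjusted p = 0.0251). Ifngr2, its signalling chain, measured 9.15, 9.19 and 9.10 in WT and 8.67, 8.45 and 8.69 in KO (log2 difference -0.54, adjusted p = 0.0381). Jak2, the kinase bound to that chain, differed by -0.64 (adjusted p = 0.0168). All 3 genes had separate groups, and each lost its call when any 1 array other than KO replicate 1 was left out (highest adjusted p 0.109, 0.152 and 0.0817).

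Of 15 measured ligands and inducing cytokines, 1 rose and 0 fell (median 0.11). Il12a, a subunit of interleukin 12, which drives interferon gamma production, was 3.56-fold higher (limma adjusted p = 0.0131, lost without KO replicate 2 or 3, highest adjusted p 0.0584). Il12b, in the same list and also named with its values known, had means of 4.82 (WT) and 4.84 (KO). It did not pass (limma adjusted p = 0.985). Ifng, picked here with its values known, measured 5.11, 4.72 and 4.78 in WT and 6.83, 5.66 and 5.95 in KO. Its groups, with means of 4.87 and 6.15, were separate, but it missed the threshold (limma adjusted p = 0.0538). Its highest array was KO replicate 1, where the mean levels of neutrophil, B cell and natural killer (NK) cell markers, given below, also peaked. The part of other cells in the Ifng level was not tested.

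Of 17 measured transcription factors of interferon responses, 3 rose and 1 fell (median 0.32). Spi1, which encodes PU.1, rose 2.18-fold (limma adjusted p = 0.00161), and Ciita, the master activator of MHC class II genes, rose 1.86-fold (adjusted p = 0.00717). Irf2, a relative of IRF1 that competes with it for ISRE sequences, was 1.66-fold higher (adjusted p = 0.0218). Irf5 was 1.99-fold lower (adjusted p = 0.0149). The call of Irf2 ended when replicate 2 or 3 of either genotype was left out (highest adjusted p 0.0987), and that of Irf5 when replicate 3 of either genotype was (0.0667). Irf1 itself, picked here with its values known, had overlapping groups with means of 8.60 (WT) and 8.88 (KO) and an adjusted p of 0.806. Of 12 feedback inhibitors, 1 rose and 0 fell (median 0.14). Socs3, an inhibitor of cytokine receptor signalling, was 1.98-fold higher (adjusted p = 0.0267, lost with the mean of its probe sets at 0.0848 and without any 1 array other than KO replicate 1, highest adjusted p 0.113).

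Genes of pathways around the GTPase proteins were mostly not called. Products of autophagy conjugation genes place IRG and GBP proteins on vacuoles. Of 17 measured genes in a list of these and related genes, 0 passed in either direction by limma, and 7 had an unadjusted p under 0.05 (median 0.22). The list also holds genes outside the conjugation machinery, among them Becn1, Sqstm1 and Rabgap1l. The largest differences in the list were 0.93 for Gabarapl1 (limma adjusted p = 0.181) and -0.87 for Rabgap1l (adjusted p = 0.0646). Gabarapl1 passed without KO replicate 1 (1.33, limma adjusted p = 0.00111), and Rabgap1l passed under several alternatives, among them quantile normalization (-0.94, adjusted p = 0.0354) and the same array left out (-0.64, adjusted p = 0.0318). Of 17 measured genes in a list of inflammasome and prenylation genes, 3 rose and 0 fell (median 0.12). This list also holds oxidase genes and the RNA sensor gene Dhx58. Its prenylation genes Fnta, Fntb, Pggt1b, Rce1 and Icmt did not pass. Il1b, the cytokine that inflammasomes mature, rose 2.64-fold (limma adjusted p = 0.0034). Nlrp3, an inflammasome sensor, was 5.84-fold higher (adjusted p = 0.0447) and Dhx58, the RNA sensor LGP2, 2.17-fold higher (adjusted p = 0.0447). Both of the last calls were lost without any of WT replicates 2 and 3 and KO replicates 2 and 3, that of Nlrp3 also without WT replicate 1 and that of Dhx58 also without KO replicate 1 (highest adjusted p 0.149 and 0.163).

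**Figure D4:**
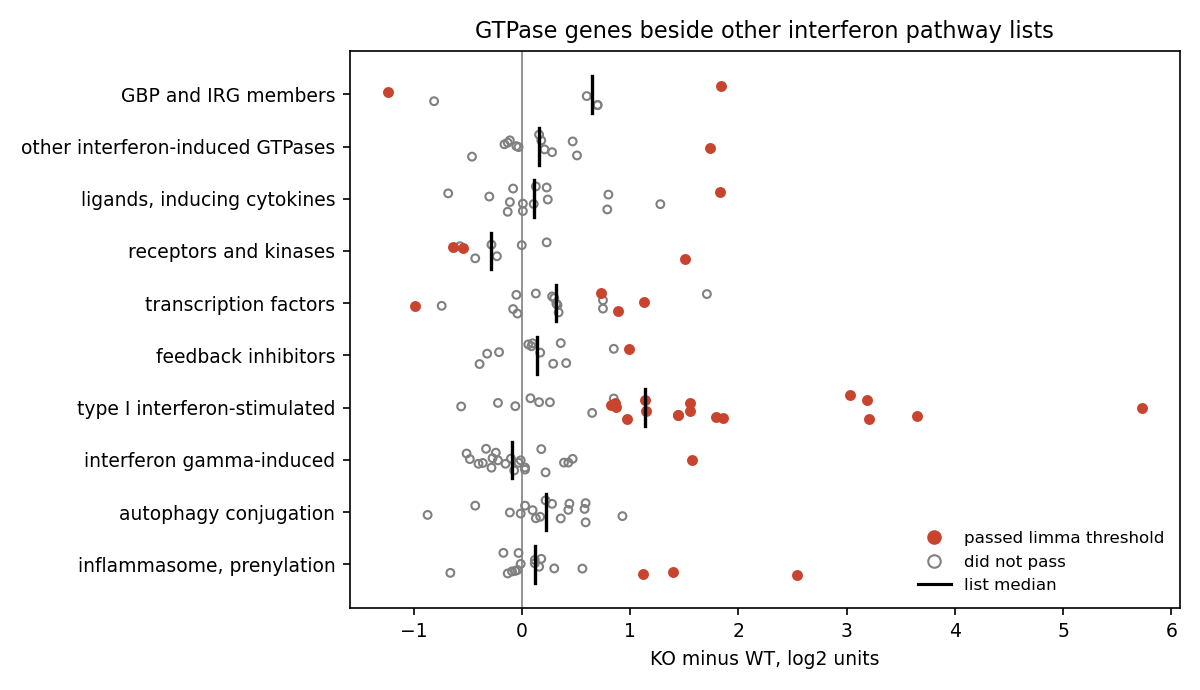
KO minus WT difference in log2 units (x axis) of each measured gene in 10 lists (rows). Filled points passed limma's adjusted threshold, open points did not, and black ticks are list medians. Row labels are short names, and the rows of other GTPases, autophagy and inflammasome genes also hold related genes. The type I interferon-stimulated list lies mostly to the right with a median of 1.14, the interferon gamma-induced list is centred near 0 at -0.09, and the GBP and IRG members lie on both sides.

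The genes whose levels followed the members most closely were found by correlation with the mean of the 6 members, each centred on its own average, over the 6 arrays. That mean was -0.24, -0.22 and 0.01 in WT and -0.07, 0.38 and 0.14 in KO. It combines members that differ in direction, so it followed the high KO replicate 2 more than the genotype. The 5 closest genes were Rnf216 (r = 0.996), Wdr26 (0.989), Stk17b (0.988), Ccl17 (0.988) and Zmym1 (0.985), and 52 genes had r above 0.95. With 6 arrays and this many genes, high values of r are common, and they are given as a description.

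The samples were checked against their labels. Irf8 had mean levels of 10.14 (WT) and 10.47 (KO), with overlapping groups and a limma adjusted p of 0.425, so it was not lower in the libraries labelled KO. The altered part of Irf8 is not named in the labels, and a probe set elsewhere in the gene checks nothing. Every direction given here therefore relies on the labels. The genes of the sort were high in both genotypes, at 12.62 and 12.27 for Siglech and 11.47 and 11.60 for Ptprc, whose product carries B220. Of 14 measured pDC markers, 0 were higher and 4 lower in KO, and their mean log2 level ran from 10.99 to 11.13 in WT and from 10.44 to 10.50 in KO. The 4 were Cd209d, with by far the largest log2 difference (-5.06, and those of the other genes follow in parentheses), Ccr9 (-0.97), Pacsin1 (-0.78) and Tlr7 (-0.60). The list means include Cd209d. Of the 14 differences, 5 were positive and 9 negative (median -0.41). The positive ones were Ly6d (0.42), Irf7 (0.32), Bcl11a (0.19), Ptprc (0.14) and Cox6a2 (0.07), and Tcf4 was at -0.05. These genes did not pass. For 8 conventional dendritic cell markers the mean log2 level ran from 7.35 to 7.63 in WT and from 5.98 to 6.08 in KO (1 of 8 higher, 3 lower). The 3 lower genes were Clec9a (-6.32), Cd209a (-3.73) and Clec10a (-2.62), and Itgax was higher (1.78). Xcr1 (0.12), Itgae (-0.24), Zbtb46 (-0.05) and Sirpa (-0.50) did not pass. The WT mean was 10.16 for Clec9a, 4.49 for Xcr1, 4.72 for Itgae, 5.24 for Zbtb46 and 10.62 for Sirpa. Which cells gave the Clec9a signal was not tested. Marker genes of other cells also moved with genotype or array, and in bulk RNA fewer cells of a type and less RNA per cell cannot be told apart. The mean log2 level of 8 measured macrophage and monocyte markers ran from 5.82 to 7.20 in WT and from 5.30 to 5.58 in KO (2 of 8 lower, 0 higher). Those 2 were Cd68 (-1.55) and C1qb (-1.47). Cd68 measured 11.36, 11.30 and 11.30 in WT, unlike C1qb (5.66, 6.99 and 6.57) and C1qc (5.84, 8.93 and 8.57). Adgre1 and Csf1r, which did not pass, had WT means of 4.59 and 6.13. Which cells gave the Cd68 signal was not tested. For 7 B cell markers the mean log2 level ran from 4.93 to 5.15 in WT and from 5.53 to 5.88 in KO (3 of 7 higher, 0 lower). Those 3 were Cd79a (1.65), Cd22 (1.51) and Fcer2a (0.60). Cd79b (-0.08), Ms4a1 (-0.17), Ebf1 (0.57) and Pax5 (0.32) did not pass. For 7 T cell markers the mean log2 level ran from 6.57 to 7.05 in WT and from 6.09 to 6.63 in KO (2 of 7 lower, 0 higher). The 2 lower T cell markers were Cd4 (-1.18) and Cd8b1 (-1.16), with WT means of 10.05 and 10.29. Cd4 is also known from pDCs, and which cells gave the Cd8b1 signal was not tested. The T cell receptor complex genes Cd3e (-0.08), Cd3d (-0.29), Cd3g (-0.02) and Cd247 (-0.03) did not pass. Their WT means were 5.80, 5.05, 3.99 and 5.39. For 10 neutrophil markers the mean log2 level ran from 4.68 to 5.94 in WT and from 5.47 to 8.86 in KO, with the highest value in KO replicate 1. Of these, 0 were called, but all 10 differences were positive (median 1.14). Ngp, for example, measured 10.43, 5.76 and 5.62 in KO, a wide spread. For 9 NK and innate lymphoid cell markers the mean log2 level ran from 4.79 to 5.04 in WT and from 4.89 to 5.24 in KO, also highest in KO replicate 1. Of these 9, 4 differences were positive and 5 negative. Klrk1 was called lower (-1.26), and Nkg7 (1.72), picked with its values known, did not pass. For 6 endothelial and stromal markers the mean log2 level ran from 6.56 to 6.83 in WT and from 6.10 to 6.48 in KO. Of these 6, 1 was lower, Kdr (-2.57), and 0 were higher. Pecam1 (-0.00) and Cdh5 (0.05) did not pass. Of 3 measured erythroid markers, 0 were called. A log2 array level has no zero, so no marker can be called absent, and the part of these cells in the GTPase levels was not tested.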

How the data were processed

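The authors' deposited table holds log2 expression levels of 34760 probe sets on 6 arrays. That they are log2 is taken from their range. The sources used here name no background correction, summarisation or normalization. The array medians ran from 5.53 to 5.56, so a shift of all transcripts cannot be seen. RNA was amplified before labelling, per the labels' protocols.

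With 3 arrays a group, precision is set by their number. Gene names came from GEO's platform annotation: 21640 had 1 symbol, 1321 several, and 11799 were not listed. Entrez identifiers of 21553 matched RefSeq genes of GRCm38.p6, changing 0 symbols. The brightest probe set by 6-array mean stood for a gene. WT and KO were compared with limma 3.58.1 (R 4.3.3), lmFit and eBayes, two-sided, without covariates or a filter on dim genes, and p-values were adjusted by Benjamini-Hochberg over 19937 genes, or over 22961 listed probe sets for shared ones. The script was tested on simulated data.

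Members, lists and alternatives were chosen with earlier results of these data known. Named genes were all members, other family GTPases past the threshold, up to 4 genes past it per further list (or the 2 largest differences where none passed), and the 5 genes most like the members. For the type I interferon-stimulated list those 4 are given as a range. Alternatives were quantile normalization, median centring, genes above a mean level of 5.54, the mean of probe sets, RefSeq-matched probe sets, robust estimation along a variance trend, weighting of arrays (statmod 1.5.0), a replicate block, leaving out arrays, and an unequal-variance test. Promoter windows came from RefSeq. Where windows of opposite strands overlapped, all 1668 pairs were reverse complements. Figures were drawn with matplotlib 3.10.9.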

Additional observations from a re-analysis of the deposited data

How the results depend on the processing

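The members called were Gbp7 (higher) and Gbp8 (lower) under quantile normalization, median centring, bright genes alone, the mean of probe sets, RefSeq-matched probe sets and the variance trend. With array weights 2 members were higher, Gbp3 and Gbp7. The arrays share only a replicate number: deviations from the group means of same-numbered arrays correlated at 0.38, 0.10 and 0.25, and KO replicate 2 correlated best with WT replicate 3 (0.20). With the number as a replicate block 2 members were higher and 2 lower, Gbp3 and Gbp4 being added, and over all genes 707 were higher and 655 lower. Array weights gave 716 and 647. Leaving out both arrays numbered 1 gave 741 and 641, with 3 members higher, Gbp3, Gbp7 and Irgm1, and 2 lower, Gbp4 and Gbp8. The unequal-variance test gave 2 higher and 2 lower genes and 0 members either way, though 3 members had an unadjusted p under 0.05. Leaving out single arrays gave 249 to 780 higher and 202 to 719 lower genes, 1 to 2 members higher (Gbp3 added without KO replicate 1) and 1 to 2 lower (Gbp4 added without WT replicate 1). Counts over all genes moved by over 1.5 times without WT replicate 2 (259 and 273), WT replicate 3 (284 and 219), KO replicate 1 (780 and 719), KO replicate 2 (249 and 202) or KO replicate 3 (251 and 211). The 6-gene probe set that lists Gbp6 turned to -0.07 without WT replicate 1 and to -0.14 without KO replicate 2, and reached 0.22 without KO replicate 1. The probe set of Irgm2 and Igtp passed with the replicate block (adjusted p = 0.0194) and with both arrays numbered 1 left out (0.0445). Over all limma alternatives the difference of Gbp7 ran from 1.68 to 1.95 (highest adjusted p 0.00919) and that of Gbp8 from -1.40 to -1.10 (0.0411). The cause of these changes was not tested. The 4 genes without a probe set of their own, the unknown background level and 3 arrays a group limit what the data can show.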
